A study of Homo sapiens with 16 samples.

Results

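The genes described here were 31 genes of cholesterol and fatty acid synthesis, taken by symbol from a given list out of the 40663 symbols of a bulk RNA-seq table of colon fibroblasts. All 31 were found, and all 31 had enough counts to be tested in each of the 6 comparisons made. By role, the list held 7 genes of the mevalonate steps, 11 of the squalene and sterol ring steps, 4 regulators and sterol carriers, 5 of fatty acid synthesis and first desaturation, and 4 of polyunsaturated fatty acid desaturation and elongation. The rule that picks them uses symbols and no levels, although the list was set with earlier results of these data known.

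The RNA came from 16 cultures of Ccd18-Co, a commercial fibroblast line from human colon and therefore cells of a single origin, in 4 groups of 4. Unstimulated cells received DMSO and no cytokines. The cells of the other 3 groups were exposed to TNF, OSM and IL-17A (10 ng/ml each) with IL-1B (0.1 ng/ml) in 3 pulses of 72 h without serum, each with 96 h of recovery in full medium, and rested for 1 week. They were then kept for 5 days in DMSO (called vehicle here), in 250 nM belinostat, an inhibitor of histone deacetylases, or in 10 µM GSK-J4, an inhibitor of histone H3 lysine demethylases, and RNA was extracted 2 weeks after that treatment ended. These concentrations are those of the sample labels, and the study's own text gives other values for IL-1B and for epigenetic compounds in experiments of this kind. For this model that text names complete medium for the recovery and does not give the serum in the pulses. It also does not say in which medium unstimulated cells were kept over those days, so the part of serum in contrasts against them was not tested. No unstimulated culture received belinostat or GSK-J4, so each compound was measured only on top of the cytokine pulses. The libraries held 14.4 to 19.5 M estimated counts.

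Cholesterol is built from acetyl-CoA by way of mevalonate, farnesyl diphosphate, squalene and lanosterol, and fatty acids from acetyl-CoA by way of malonyl-CoA, after which desaturases and elongases set the number of double bonds and the chain length. Both routes are under the sterol regulatory element-binding proteins, encoded by SREBF1 and SREBF2. These are held in the endoplasmic reticulum with SCAP and INSIG1 while sterol is plentiful, and are cut free to enter the nucleus when it falls. Cultured fibroblasts use this system to balance their own synthesis against the sterol and fatty acids that serum supplies.

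The sequence before the start site was available for 27 of the 31 genes (RefSeq, GRCh38.p14). SQLE, FASN, FDFT1 and ACAT2 had no entry. In the 250 bases before the start, on either strand, the letters CCAAT, the core of the box bound by the factor NF-Y, stood in 20 of the 27 genes (74.1%), against 37% of 27305 genes with such a window. GGGCGG, the GC box, stood in 25 of 27 (92.6%), against 46.2%. CACGTG, an E-box, stood in 3 of 27 (11.1%), against 7.73%. TCACNCCAC, the core of the sterol regulatory element in the form searched, stood only in the window of SREBF2 among the 27, 133 bases before its start, and in 1.09% of all genes. The windows below are those of ELOVL2 and ELOVL6, the members called in the most contrasts, and for comparison those of SREBF2, MSMO1 and SCD, of which the last pair were among the genes that varied most from culture to culture. They are at chr6:11044306-11044555 (minus strand, ELOVL2), chr4:110198616-110198865 (minus strand, ELOVL6), chr22:41832855-41833104 (plus strand, SREBF2), chr4:165327419-165327668 (plus strand, MSMO1) and chr10:100346983-100347232 (plus strand, SCD). Capitals mark CCAAT, which reads ATTGG where it lies on the other strand, and TCACNCCAC.
ELOVL2: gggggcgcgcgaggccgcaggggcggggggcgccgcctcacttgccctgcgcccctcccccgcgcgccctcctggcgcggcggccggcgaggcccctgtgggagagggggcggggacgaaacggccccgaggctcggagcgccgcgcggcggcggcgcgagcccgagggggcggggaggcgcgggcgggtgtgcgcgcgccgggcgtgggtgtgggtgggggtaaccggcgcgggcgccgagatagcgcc
ELOVL6: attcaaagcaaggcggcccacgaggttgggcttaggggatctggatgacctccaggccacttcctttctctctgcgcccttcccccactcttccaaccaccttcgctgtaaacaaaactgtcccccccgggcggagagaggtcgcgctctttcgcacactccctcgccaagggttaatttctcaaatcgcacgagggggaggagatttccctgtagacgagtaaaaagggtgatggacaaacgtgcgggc
SREBF2: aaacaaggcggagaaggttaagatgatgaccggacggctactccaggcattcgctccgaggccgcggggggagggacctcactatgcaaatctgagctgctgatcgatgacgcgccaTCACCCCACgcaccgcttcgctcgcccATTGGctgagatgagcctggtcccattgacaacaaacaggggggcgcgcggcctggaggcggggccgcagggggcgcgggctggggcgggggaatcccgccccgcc
MSMO1: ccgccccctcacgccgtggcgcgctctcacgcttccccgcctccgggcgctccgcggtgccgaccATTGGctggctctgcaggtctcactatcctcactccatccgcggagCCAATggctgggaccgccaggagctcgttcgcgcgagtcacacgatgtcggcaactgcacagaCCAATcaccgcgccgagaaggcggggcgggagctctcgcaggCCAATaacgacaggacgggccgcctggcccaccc
SCD: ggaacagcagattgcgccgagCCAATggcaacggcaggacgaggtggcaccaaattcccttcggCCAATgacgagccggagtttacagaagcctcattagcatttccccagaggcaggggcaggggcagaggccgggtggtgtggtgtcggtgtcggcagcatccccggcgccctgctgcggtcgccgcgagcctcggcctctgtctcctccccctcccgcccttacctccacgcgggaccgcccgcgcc
The ELOVL2 and ELOVL6 windows held neither set of letters, and G and C made up 84.8% of the ELOVL2 window against 57.2% of that of ELOVL6. The MSMO1 window held CCAAT 4 times and the SCD window 2 times.

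Levels are given as normalized counts, that is, estimated counts divided by the size factor of the library. One belinostat culture, replicate 17, was unlike the remaining 3 belinostat cultures. It had the highest level of its group for 28 of the 31 genes, against 35.5% of all genes averaging at least 50 normalized counts, and the median gene of the list lay 0.64 log2 units above the mean of the other 3 belinostat libraries. The distance was widest for SCD at 3.26-fold, DHCR7 at 2.78-fold, INSIG1 at 2.38-fold, FADS1 at 2.1-fold and MSMO1 at 2.03-fold. The 3 genes that were not highest there were TM7SF2, ELOVL6 and ELOVL2, and ELOVL2 was at its lowest. Genes outside the list also set this library apart: KRT18, a keratin, stood at 1434 normalized counts in replicate 17 and at 2553 to 2950 in the other 3, while KRT8, its partner, was highest there, at 504.1 against 411.5 to 489.8. Of the 10 fibroblast markers 8 were lowest there, COL1A1 at 68880 against 89170 to 92350, and CD68 stood at 473.5 against 147.8 to 203.9. Of the 7 proliferation markers averaging at least 50 normalized counts, 2 were highest and 2 lowest there. Below that level MKI67 stood at 11.46 against 30.53 to 44.23, RRM2 at 12.41 against 25.96 to 38.84 and BIRC5 at 8.592 against 10.99 to 19.42. BUB1, AURKB, CCNA2 and UBE2C were also lowest there, and PLK1 lay within the range of the others. The part of these genes in the levels of the list was not tested. Its total of 18.26 M counts was the highest of the group. A single library also led in each remaining group, with a smaller distance. Vehicle replicate 14 was highest for 28 of the 31 genes, 0.22 log2 units above the rest of its group at the median. GSK-J4 replicate 22 was highest for 24 of 31 (0.15), and unstimulated replicate 3 for 17 of 31 (0.105). Because one fit holds all 16 libraries, leaving out replicate 17 also changed the errors in contrasts without belinostat, and calls that it moved are given there too. Each library was left out in turn, but replicate 17 was singled out by its levels of these same genes. Calls gained without it are therefore description and not separate support.

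**Figure D1:**
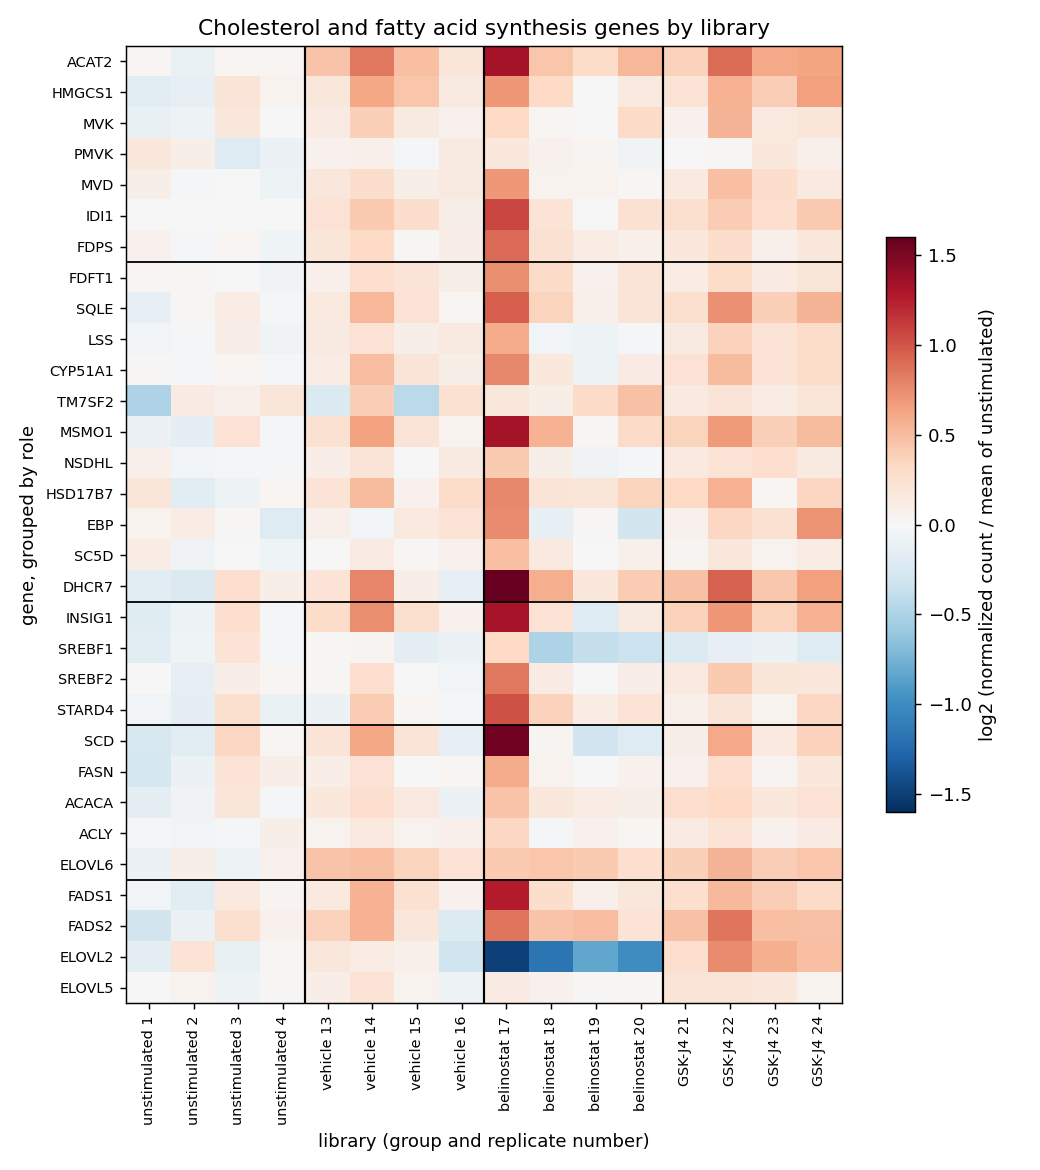
Colour shows log2 of the normalized count over the mean of the 4 unstimulated libraries, for the 31 genes (rows, grouped by role) in the 16 libraries (columns, labelled by group and replicate). Belinostat replicate 17 is the strongest column, with a median of 0.74 over the 31 genes, and ELOVL2 is the one row that is low in all 4 belinostat libraries and high in the GSK-J4 libraries.

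The fibroblast identity of the cultures was checked on markers. All 10 fibroblast genes listed were present, with a summed level of 467700 to 635100 normalized counts over the 16 libraries. Of the epithelial markers KRT20 was at 0 throughout, and EPCAM, CDH1, VIL1 and CDX2 stayed under 15 normalized counts, whereas KRT8 and KRT18 were present in every library. Of the endothelial markers, CDH5, KDR and PECAM1 stayed under 10 normalized counts and VWF lay at 13.33 to 39.06. Of the blood cell markers, CD3E and MS4A1 were at 0 and PTPRC and LYZ under 10, while CD68 lay at 147.8 to 473.5. Of the adipocyte markers, ADIPOQ, PLIN1, PLIN4, FABP4, LEP, CIDEC and LPL stayed under 30 normalized counts, and PPARG lay at 439.2 to 683.3.

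Across the list, few genes passed the test between neighbouring conditions and more did against unstimulated cells. A gene was called at a DESeq2 Benjamini-Hochberg adjusted p under 0.05, taken over all genes tested. Vehicle against unstimulated gave 1 call among the 31 (ELOVL6, higher) where 1.74% of all tested genes were called, belinostat against vehicle 1 (ELOVL2, lower) where 6.26% were called, GSK-J4 against vehicle 1 (ELOVL2, higher) where 1.92% were called, and belinostat against GSK-J4 1 (ELOVL2, lower) where 12.2% were called. Belinostat against unstimulated gave 6 calls, 5 higher and 1 lower, where 10.3% of all tested genes were called. GSK-J4 against unstimulated gave 6, all higher, where 5.55% of all tested genes were called. These comparisons share libraries, the vehicle or the unstimulated ones among them, and are therefore not independent of each other.

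The clearest difference in the list was in ELOVL2, the elongase that lengthens polyunsaturated fatty acids towards the precursors of docosahexaenoic acid (ENSG00000197977.4, chromosome 6, 10980759 to 11044305, minus strand). Its level was 453.6, 585.6, 462.5 and 511.6 normalized counts in the unstimulated cultures and 569.2, 544.3, 530.9 and 404.8 in vehicle. Under belinostat it was 179.5, 224.7, 283.7 and 253.3, and under GSK-J4 607.2, 846.8, 743.7 and 702.3. The unstimulated and vehicle libraries overlapped, all 4 belinostat libraries lay below every other library, and all 4 GSK-J4 libraries lay above every other library. The means were 503.3 ± 60.5 in unstimulated cells, 512.3 ± 73.4 in vehicle, 235.3 ± 44.3 under belinostat and 725 ± 99.3 under GSK-J4 (SD, n = 4).

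ELOVL2 was thus 2.18-fold lower under belinostat than in vehicle, or -1.12 in log2 (SE 0.14, adjusted p = 2.95e-12 by DESeq2). This call was kept in each of the 21 alternative fits, with log2 fold changes from -1.23 to -1.01, and the value without belinostat replicate 17 was -1.01. Under GSK-J4 it was 1.41-fold higher than in vehicle, or 0.50 in log2 (SE 0.14, adjusted p = 0.0228 by DESeq2). That call was kept in 14 of 21 alternatives. It was lost in edgeR and on leaving out any 1 of the vehicle replicates 14, 15 and 16 and the GSK-J4 replicates 22, 23 and 24, and log2 fold changes over all alternatives ran from 0.40 to 0.58 and adjusted p from 0.00161 to 0.211 (DESeq2 and edgeR). The compounds differed directly by -1.62 on the log2 scale, belinostat against GSK-J4 (SE 0.14, DESeq2 adjusted p = 1.31e-26), a level 3.08-fold lower under belinostat, and this was kept in each of the 21 alternatives. Against unstimulated cells, ELOVL2 was lower under belinostat by -1.10 (SE 0.14, DESeq2 adjusted p = 7.26e-12) and higher under GSK-J4 by 0.53 (SE 0.14, DESeq2 adjusted p = 0.00521), the latter not called without GSK-J4 replicate 22 (0.44). Vehicle and unstimulated cells differed by 0.03 (95% interval -0.25 to 0.30), which did not pass. The antisense gene ELOVL2-AS1, which overlaps it, held a mean of 2.5 estimated counts against 498.8.

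**Figure D2:**
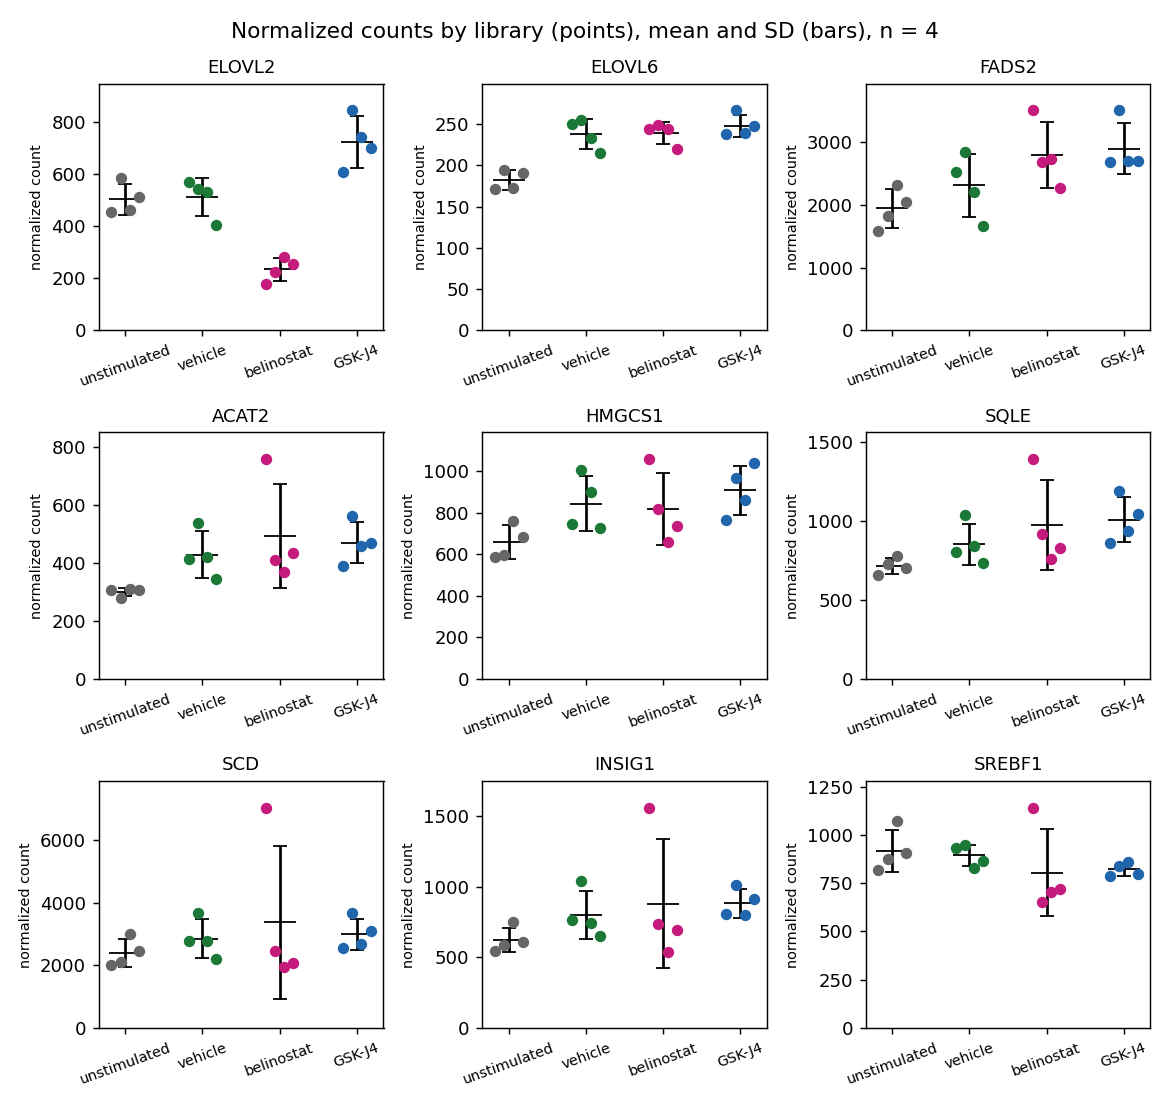
Each panel shows 1 gene, with the normalized count of every library as a point, by group, and the mean with SD as bars (n = 4). ELOVL2 lies between 179.5 and 283.7 under belinostat and between 607.2 and 846.8 under GSK-J4, ELOVL6 is lower in the 4 unstimulated libraries than in any other, and 1 belinostat library stands far above its group for SCD and INSIG1.

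The other 3 genes of polyunsaturated fatty acid synthesis were not called lower under belinostat, and FADS2 was called higher in 2 comparisons. FADS2 encodes the desaturase that opens this route (ENSG00000134824.14, chromosome 11, 61792980 to 61867354, plus strand). It stood at 1587, 1828, 2318 and 2043 normalized counts in unstimulated cells and at 2520, 2847, 2208 and 1667 in vehicle. Under belinostat it stood at 3513, 2678, 2727 and 2270, and under GSK-J4 at 2684, 3507, 2705 and 2700. The GSK-J4 libraries all lay above the unstimulated ones, while the lowest belinostat library fell just inside the unstimulated range. FADS2 was higher than in unstimulated cells by 0.58 on the log2 scale under GSK-J4 (SE 0.16, DESeq2 adjusted p = 0.0078) and by 0.52 under belinostat (SE 0.16, DESeq2 adjusted p = 0.013). The first call was lost without GSK-J4 replicate 22 (0.47) and the second without belinostat replicate 17 (0.40) or unstimulated replicate 1 or 2. FADS1, the following desaturase, and ELOVL5, an elongase of shorter polyunsaturated chains, were called in no contrast by DESeq2 with all 16 libraries. Their log2 fold changes under GSK-J4 against unstimulated cells were 0.37 (SE 0.22) and 0.16 (SE 0.06). In that contrast FADS1 was called without belinostat replicate 17 (0.37, SE 0.10, DESeq2 adjusted p = 0.00377) and in the fit of those groups alone, and ELOVL5 without vehicle replicate 16 or GSK-J4 replicate 24. FADS1 and FADS2 overlap on opposite strands, and FEN1 lies within FADS2 on the same strand. FEN1 itself differed by 0.14 (SE 0.13) under GSK-J4 and 0.01 (SE 0.14) under belinostat against unstimulated cells.

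Among the genes of fatty acid synthesis and first desaturation, ELOVL6 was higher in every cytokine-pulsed group. It encodes the elongase that takes palmitate to stearate (ENSG00000170522.10, chromosome 4, 110045846 to 110199199, minus strand). Its level was 171.8, 194.2, 173.1 and 191.4 normalized counts in unstimulated cells and 250.3, 254.9, 233.8 and 214.8 in vehicle. Under belinostat it was 244.4, 249.1, 243.8 and 220.1, and under GSK-J4 238, 267.2, 239.8 and 248.4. All 12 libraries of pulsed cells lay above all 4 unstimulated ones, and the 3 pulsed groups overlapped with each other. ELOVL6 rose by 0.39 on the log2 scale in vehicle (SE 0.10, DESeq2 adjusted p = 0.00591), by 0.39 under belinostat (SE 0.10, DESeq2 adjusted p = 0.00138) and under GSK-J4 by 0.44 (SE 0.10, DESeq2 adjusted p = 0.000234), each against unstimulated cells. Of the 21 alternative fits, the call in vehicle was lost in 1, without vehicle replicate 14 (adjusted p = 0.0572 by DESeq2), and the calls under both compounds were kept in all 21. Belinostat differed from vehicle by 0.01 (95% interval -0.18 to 0.19) and GSK-J4 by 0.06 (95% interval -0.12 to 0.24), and neither passed the test.

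The remaining genes of this step were called in no contrast by DESeq2 with all 16 libraries. They were ACLY, which makes cytosolic acetyl-CoA from citrate, ACACA, which makes malonyl-CoA, FASN, the synthase itself, and SCD, which places the first double bond. Against unstimulated cells their log2 fold changes under GSK-J4 were 0.14 (SE 0.07) for ACLY, 0.25 (SE 0.10) for ACACA, 0.14 (SE 0.12) for FASN and 0.32 (SE 0.36) for SCD. Without belinostat replicate 17 that contrast was called for ACACA (0.25, SE 0.08, DESeq2 adjusted p = 0.0328) and ACLY (0.14, SE 0.04, DESeq2 adjusted p = 0.0273). SCD had the widest spread of the list under belinostat: 2014 to 3016 normalized counts in unstimulated cells, 2198 to 3680 in vehicle, 2564 to 3658 under GSK-J4, and 1938 to 2463 in 3 belinostat libraries beside 7033 in replicate 17. With all 4 belinostat libraries SCD differed from vehicle by 0.24 (SE 0.36), and with 3 by -0.40 (SE 0.20), so the sign rested on 1 library and neither value passed the test.

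In the mevalonate steps, ACAT2 and HMGCS1, the enzymes that join acetyl-CoA units at the entrance of the route, were the genes called. ACAT2 (ENSG00000120437.9, chromosome 6, 159762045 to 159779112, plus strand) stood at 307.9, 280.3, 308.9 and 308.5 normalized counts in unstimulated cells and at 413.1, 539.5, 420.1 and 344.9 in vehicle. Under belinostat it stood at 759, 410.3, 370 and 436.1, and under GSK-J4 at 390.6, 561.1, 460.2 and 468.5. Each of the 12 pulsed libraries was above each unstimulated one. ACAT2 was higher under GSK-J4 by 0.64 (SE 0.19, DESeq2 adjusted p = 0.0176) and by 0.71 under belinostat (SE 0.19, DESeq2 adjusted p = 0.00318), and without belinostat replicate 17 by 0.43 in the latter (SE 0.14, DESeq2 adjusted p = 0.0265). The GSK-J4 call was kept in 18 of 21 alternatives and lost in edgeR and without unstimulated replicate 2 or GSK-J4 replicate 22, with adjusted p up to 0.113 over the DESeq2 and edgeR fits. In vehicle the difference of 0.51 (SE 0.19, DESeq2 adjusted p = 0.202) did not pass, although it did in the fit without belinostat replicate 17 (0.51, SE 0.13, DESeq2 adjusted p = 0.00424). ACAT2 overlaps TCP1 and SOD2 on the other strand, which held means of 3215.8 and 7398.1 estimated counts against 425.8. In GSK-J4 against unstimulated, SOD2 differed by 0.08 (SE 0.05) and TCP1 by -0.07 (SE 0.07).

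HMGCS1 (ENSG00000112972.15, chromosome 5, 43287470 to 43313512, minus strand), which makes HMG-CoA, stood at 584.8, 598.6, 760.8 and 682.5 normalized counts in unstimulated cells and 745.3, 1004, 897 and 727.5 in vehicle. It stood at 1058, 816.9, 657 and 734.1 under belinostat and 765.9, 965.5, 862.5 and 1036 under GSK-J4. All GSK-J4 libraries lay above the unstimulated ones, the lowest by a narrow distance, and the other groups overlapped. The rise under GSK-J4 was 0.47 (SE 0.14, DESeq2 adjusted p = 0.0283) and was kept in 14 of 21 alternatives, with adjusted p from 0.00132 to 0.136 over DESeq2 and edgeR fits. The kinases MVK and PMVK, the decarboxylase MVD, the isomerase IDI1 and the farnesyl diphosphate synthase FDPS were called in no contrast by DESeq2 with all 16 libraries. Under GSK-J4 against unstimulated cells they lay between 0.07 (PMVK, SE 0.09) and 0.34 (IDI1, SE 0.16), and under belinostat between 0.06 (PMVK, SE 0.09) and 0.45 (IDI1, SE 0.16, DESeq2 adjusted p = 0.0572).

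Of the 11 genes of the squalene and sterol ring steps, FDFT1 and SQLE were called, both against unstimulated cells. FDFT1, the squalene synthase, stood at 1358, 1346, 1335 and 1278 normalized counts in unstimulated cells and 1406, 1596, 1535 and 1417 in vehicle. It stood at 2222, 1640, 1398 and 1540 under belinostat and 1449, 1635, 1454 and 1517 under GSK-J4. All 12 pulsed libraries exceeded the 4 unstimulated ones. Its rise passed under belinostat at 0.36 (SE 0.11, DESeq2 adjusted p = 0.0133), and was 0.20 without belinostat replicate 17 (SE 0.07, DESeq2 adjusted p = 0.0367). It was not called in the fit of those groups alone or without unstimulated replicate 4, with adjusted p up to 0.0934 over the DESeq2 and edgeR fits.

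SQLE, the squalene epoxidase, which opens the oxygen-dependent part of the route, stood at 658.2, 730.8, 780.3 and 703.9 normalized counts in unstimulated cells and 802.4, 1036, 843.9 and 734.9 in vehicle. It stood at 1394, 920.7, 762.7 and 828.6 under belinostat and 861.5, 1190, 937.7 and 1043 under GSK-J4. The GSK-J4 libraries did not overlap with the unstimulated ones, and the belinostat libraries did. SQLE was higher under GSK-J4 by 0.49 (SE 0.16, DESeq2 adjusted p = 0.04) and by 0.44 under belinostat (SE 0.16, DESeq2 adjusted p = 0.04999), the latter on the edge of the threshold. Without belinostat replicate 17 the belinostat value was 0.22 (DESeq2 adjusted p = 0.285), and only 6 of 21 alternatives kept that call. For GSK-J4, 13 of 21 did.

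The later ring steps gave smaller or more variable differences and were called in no contrast by DESeq2 with all 16 libraries. These genes are LSS, which closes the ring to lanosterol, CYP51A1, TM7SF2, MSMO1, NSDHL and HSD17B7, which take off its methyl groups and reduce it, and EBP, SC5D and DHCR7, which shift and reduce the remaining double bonds. All 9 had positive log2 fold changes under GSK-J4 against unstimulated cells, from 0.10 (SC5D, SE 0.09) to 0.64 (DHCR7, SE 0.34). For 5 of the 9 (LSS, CYP51A1, MSMO1, NSDHL and DHCR7) the GSK-J4 libraries lay wholly above the unstimulated ones. DHCR7 showed how far 1 culture could carry a mean: its belinostat libraries were 1376, 564.1, 420.7 and 498.4 normalized counts, and the difference from vehicle was 0.64 (SE 0.34) with all 4 and 0.11 (SE 0.19) without replicate 17. HSD17B7 has a near-identical copy, HSD17B7P2, with a mean of 26.2 estimated counts against 168.9, and TM7SF2, at a mean of 55 estimated counts, overlaps VPS51 on the same strand with 1403.2, so reads could be divided between these pairs with an uncertainty that the errors do not hold.

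Of the regulators, SREBF1 had negative log2 fold changes where most of the list had positive ones. It stood at 820.3, 876.9, 1071 and 905.1 normalized counts in unstimulated cells and 933.7, 947.7, 830.9 and 863.1 in vehicle. It stood at 1141, 654.5, 703.4 and 720.6 under belinostat and 789.3, 840.6, 859.5 and 796.6 under GSK-J4. Belinostat replicate 17 was the highest of all 16 libraries, and the other 3 belinostat libraries were the lowest of all 16. With all 4, belinostat differed from vehicle by -0.15 (SE 0.14, DESeq2 adjusted p = 0.703) and from unstimulated cells by -0.19 (SE 0.14, DESeq2 adjusted p = 0.467), and neither passed. Without replicate 17 SREBF1 was called lower in both, by -0.37 (SE 0.09, DESeq2 adjusted p = 0.000765) and -0.41 (SE 0.09, DESeq2 adjusted p = 0.000111). The values under GSK-J4 and in vehicle against unstimulated cells, -0.16 (SE 0.14) and -0.04 (SE 0.14), did not pass. SREBF1 (ENSG00000072310.18, chromosome 17, 17810399 to 17837002, minus strand) overlaps RAI1 on the other strand, with 1668.4 against 871.1 estimated counts on average.

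SREBF2 (ENSG00000198911.13, chromosome 22, 41833105 to 41907306, plus strand), the gene whose window above holds the sterol element, stood at 1903, 1739, 2048 and 1945 normalized counts in unstimulated cells and 1931, 2309, 1905 and 1855 in vehicle. It stood at 3421, 2092, 1924 and 2046 under belinostat and 2131, 2551, 2189 and 2167 under GSK-J4. The GSK-J4 libraries all lay above the unstimulated ones, but the difference of 0.24 (SE 0.14, DESeq2 adjusted p = 0.44) did not pass with all 16 libraries. Without belinostat replicate 17 it did (0.24, SE 0.08, DESeq2 adjusted p = 0.0248). INSIG1 (ENSG00000186480.13, chromosome 7, 155297776 to 155310235, plus strand), which retains the precursors and is itself a target of theirs, stood at 545.3, 586.6, 748.4 and 610.2 in unstimulated cells and 763.3, 1043, 742.4 and 653.8 in vehicle. It stood at 1558, 733.9, 539.4 and 690.5 under belinostat and 805.5, 1010, 796.5 and 912.9 under GSK-J4. Its GSK-J4 libraries also lay above the unstimulated ones, with a difference of 0.50 (SE 0.28, DESeq2 adjusted p = 0.408) that did not pass with all 16 libraries and passed without belinostat replicate 17 (0.50, SE 0.14, DESeq2 adjusted p = 0.00644). STARD4, a carrier that moves sterol between membranes, was called in no contrast by the DESeq2 fit of all 16 libraries and all genes. It differed by 0.47 under belinostat (SE 0.17, DESeq2 adjusted p = 0.0532) and by 0.17 under GSK-J4 (SE 0.17), each against unstimulated cells. The belinostat contrast was called on filtering to genes with at least 10 counts in at least 4 libraries. It was also called without unstimulated replicate 3, vehicle replicate 14, or belinostat replicate 19 or 20. Without belinostat replicate 17 it was not called (0.23).

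Read over the list, the medians of the pulsed groups stood a little above unstimulated cells, while single libraries overlapped. In vehicle 30 of the 31 genes had a positive log2 fold change, with a median of 0.16 against -0.0048 over all 16240 tested genes. Without vehicle replicate 14 the vehicle median was 0.11, with 26 of 31 positive. By library, the median against the unstimulated mean was 0.07 in vehicle replicate 16 and 0.02 in belinostat replicate 19. It was 0.08 in unstimulated replicate 3. The lowest GSK-J4 library, replicate 21, stood at 0.17. The genes varied together from culture to culture, so their signs are not independent. For 6 of the 31 all 4 vehicle libraries exceeded the 4 unstimulated ones, namely ACAT2, MVD, IDI1, FDFT1, CYP51A1 and ELOVL6, where 3.8% of all tested genes did. Under GSK-J4, 30 of 31 were positive, with a median of 0.27 against -0.0078. For 19 of the 31 the GSK-J4 libraries lay wholly above the unstimulated ones, where 6.71% of all tested genes did. Under belinostat 29 of 31 were positive with a median of 0.31 against -0.0009, and 5 of 31 (ACAT2, FDPS, FDFT1, HSD17B7 and ELOVL6) lay wholly above, where 6.62% did. Without belinostat replicate 17 that median was 0.12, with 25 of 31 positive. SREBF1 was the exception in the negative direction in all 3 comparisons, joined by ELOVL2 under belinostat.

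**Figure D3:**
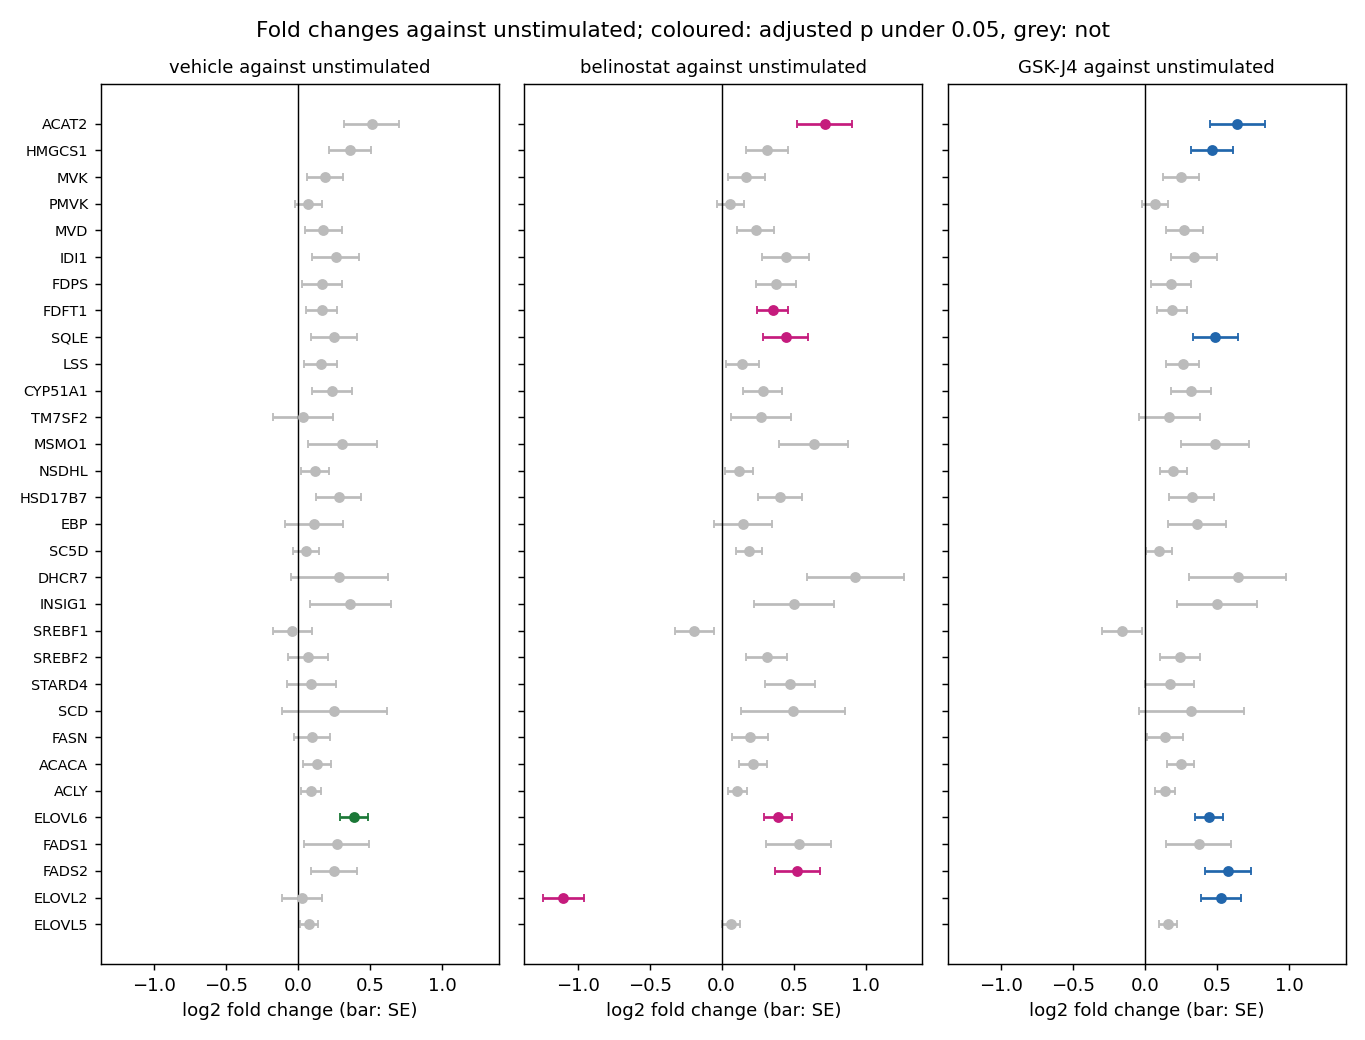
Points are DESeq2 log2 fold changes of the 31 genes against unstimulated cells in vehicle, belinostat and GSK-J4 (bars, SE), coloured where the adjusted p was under 0.05 and grey elsewhere. Most points sit right of 0 in all 3 panels, with medians of 0.16, 0.31 and 0.27, and ELOVL2 under belinostat is the only coloured point on the left, at -1.10.

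How many of the 31 passed the test in GSK-J4 against unstimulated differed between the fits. The fit of all 16 libraries called 6, beside 930 of all genes. The fit of those 8 libraries alone called 16, beside 993 of all genes. The fit without belinostat replicate 17 called 18 where 8.64% of all tested genes were called, adding MVD, IDI1, FDFT1, LSS, CYP51A1, MSMO1, DHCR7, INSIG1, SREBF2, ACACA, ACLY and FADS1. That library was singled out by the levels of these same genes, so the added calls are not separate support. By contrast edgeR called 3, beside 787 of all genes, and the fit without GSK-J4 replicate 22 called 1 (ELOVL6), beside 651. In vehicle against unstimulated the fit without belinostat replicate 17 called 3 of 31 where 3.1% of all tested genes were called, adding ACAT2 and IDI1 (0.26, SE 0.08, DESeq2 adjusted p = 0.0269). The log2 fold changes themselves moved little, with medians of 0.22 to 0.27 in these fits of GSK-J4 against unstimulated. Markers of proliferation moved with this contrast. Of the 15 listed, 6 were called higher under GSK-J4 than in unstimulated cells, MKI67 by 2.38 and TOP2A by 1.59 on the log2 scale among them, and their summed level was 1968 to 2155 normalized counts against 1422 to 1663. In vehicle 3 of 15 were called higher (TOP2A 0.81, RRM2 1.23 and BIRC5 1.66) and under belinostat 4 of the 13 tested. Of all tested genes 5.55% were called under GSK-J4, 1.74% in vehicle and 10.3% under belinostat, each against unstimulated cells. Several of these markers were low in unstimulated cells: MKI67 at 9.765 to 14.48 normalized counts, RRM2 at 9.651 to 19.53 and BIRC5 at 2.663 to 6.755. PCNA alone gave 704.9 to 842.5 of the summed level there. Fibroblast markers moved too. Of the 10, 4 were called higher under GSK-J4 than in unstimulated cells, COL1A2 (0.23), COL3A1 (0.28), LUM (0.48) and FN1 (0.37). The part of either marker list in the levels of the lipid genes was not tested. In bulk RNA, more cells of a kind and more RNA per cell cannot be told apart.

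Each compound was also set against vehicle, which asks what it added or removed weeks after cytokine exposure. Apart from ELOVL2 the list showed no call in either comparison. Under GSK-J4, 29 of 31 genes were positive against vehicle, but with a median of 0.08 (all tested genes -0.0025), and for 1 of 31, ELOVL2, all 4 GSK-J4 libraries lay above vehicle, where 5.52% of all tested genes did. That median was 0.16 without vehicle replicate 14, 0.05 without vehicle replicate 16, and 0.06 with 24 of 31 positive without GSK-J4 replicate 22. Of the 10 fibroblast markers 3 were called higher than in vehicle, COL1A2 (0.22), COL3A1 (0.22) and FN1 (0.29), and their part in the levels of the list was not tested. Under belinostat 24 of 31 were positive with a median of 0.13 (all tested genes 0.0029), and for none did all 4 libraries lie above vehicle, where 5.38% of all tested genes did. The median was 0.08 without vehicle replicate 16 and 0.19 without belinostat replicate 19. Without belinostat replicate 17 it was -0.06 and 8 of 31 were positive, and LSS (-0.20, SE 0.06, DESeq2 adjusted p = 0.0132) and SREBF1 were called lower beside ELOVL2, 3 of 31 where 8.27% of all tested genes were called in that fit. The keratins KRT8 (0.36) and KRT18 (0.84) were called higher and the fibroblast markers COL1A1 (-0.29), PDGFRA (-0.25) and FN1 (-0.34) lower under belinostat against vehicle, while EPCAM stayed at or under 5.73 normalized counts in every library. The part of these markers in the levels of the list was not tested. Between the compounds, belinostat against GSK-J4, the median was -0.0094 with 14 of 31 positive, and -0.03 to 0.07 on leaving out any 1 library other than belinostat replicate 17. Without replicate 17 it was -0.18 with 3 of 31 positive, and LSS (-0.31), EBP (-0.49), INSIG1 (-0.43) and SREBF1 (-0.24) were called lower under belinostat in addition to ELOVL2, 5 of 31 where 14.6% of all tested genes were called in that fit.

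**Figure D4:**
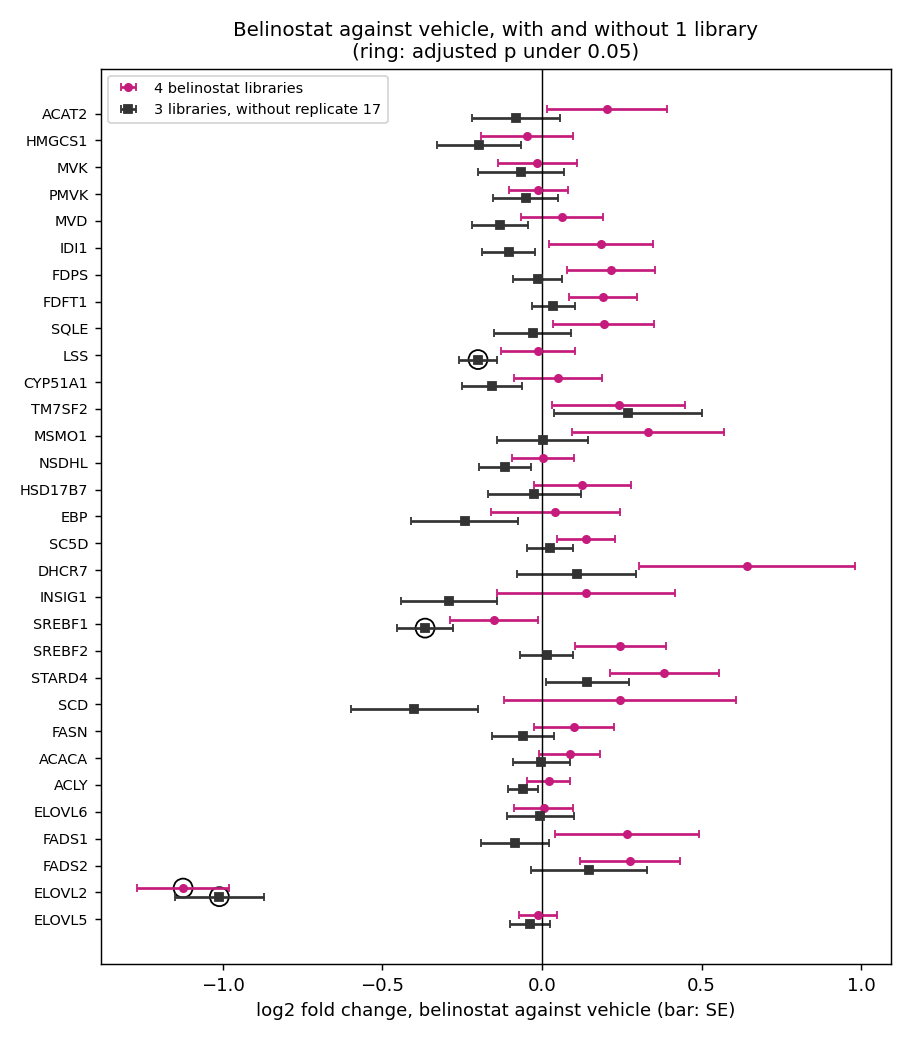
Points are log2 fold changes of belinostat against vehicle for the 31 genes, with all 4 belinostat libraries (circles) and without replicate 17 (squares), bars are SE, and a ring marks an adjusted p under 0.05. The median moves from 0.13 to -0.06 when that library is left out, while ELOVL2 stays at -1.12 and -1.01.

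Genes that handle cholesterol after its synthesis were read from the same fit, where 6.26% of all tested genes were called in belinostat against vehicle. Of 14 genes of cholesterol uptake, trafficking and storage, 4 were called higher against vehicle. They were NPC1, which exports cholesterol from lysosomes, with 2652 to 4971 normalized counts against 2155 to 2345 (0.60, SE 0.14, DESeq2 adjusted p = 0.000501), the lipoprotein receptor SCARB1 (0.34), TMEM97, which binds NPC1 (0.52), and OSBPL9, an oxysterol-binding family member (0.56, SE 0.07, DESeq2 adjusted p = 2.65e-14). All 4 belinostat libraries lay above all vehicle libraries for each of these, and the call was kept in all 21 alternatives, NPC1 at 0.37 without belinostat replicate 17. Of the 10 tested genes of LXR targets and sterol efflux, LXR being the receptor for oxysterols, 3 were called lower: MYLIP, a ubiquitin ligase of lipoprotein receptors (-0.35), CYP27A1, a sterol hydroxylase (-0.18), and ABCA2, a lipid transporter (-0.25). The CYP27A1 call was kept in 15 of 21 alternatives and that of MYLIP in 20. HACD2, the dehydratase of chain elongation, was higher (0.23) among 17 tested chain supply and elongation partners, and ACSL4, which activates arachidonate (-0.52), and GPAT3, of glycerolipid synthesis (-0.47), were lower among 14. The medians of these 4 lists were 0.05, -0.09, 0.06 and -0.08. DESeq2 and edgeR each gave 0 calls among 12 genes of sterol sensing (2 at an unadjusted DESeq2 p under 0.05), 11 of the isoprenoid branch (0) and 10 of fatty acid oxidation (1).

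Under GSK-J4 against vehicle, where 1.92% of all tested genes were called, the calls lay in other genes of lipid handling. ABCG1, a sterol exporter and LXR target, stood at 128 to 185.1 normalized counts against 66.12 to 98.04 in vehicle (0.98, SE 0.22, DESeq2 adjusted p = 0.00159), while ABCA1 stood at 2872 to 3565 against 2829 to 3293. ABCG1 was the 1 call among 9 tested genes of its list. Of 10 genes of fatty acid oxidation, CPT1A, which admits long chains to mitochondria (0.29), and PDK4, which restrains glucose oxidation (0.81), were higher. GPAT3 was higher (0.37), 1 of 13 tested, so that it was called in opposite directions against vehicle under GSK-J4 and belinostat. ACACB, the mitochondrial form of acetyl-CoA carboxylase, was lower (-0.31), 1 of 17 tested, and this call was kept in 12 of 21 alternatives. DESeq2 and edgeR each gave 0 calls among the genes of sterol sensing (1 of 12 at an unadjusted DESeq2 p under 0.05), of cholesterol uptake, trafficking and storage (0 of 14) and of the isoprenoid branch (0 of 11). Of the 11 proliferation markers tested in this contrast, 3 were called higher, MKI67 (1.42), TOP2A (0.78) and TYMS (0.66).

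In vehicle against unstimulated cells, where 1.74% of all tested genes were called, 2 of these partner genes were called. VLDLR, a lipoprotein receptor, was lower (-0.57, SE 0.11, DESeq2 adjusted p = 9.08e-05), 1 of 14. ACSL1, which activates long-chain fatty acids, was higher (0.33, SE 0.05, DESeq2 adjusted p = 3.95e-07), 1 of 14. Both were kept in all 21 alternatives. DESeq2 and edgeR each gave 0 calls in sterol sensing (2 of 12 at an unadjusted DESeq2 p under 0.05), LXR targets and sterol efflux (3 of 11), the isoprenoid branch (0 of 11), chain supply and elongation partners (2 of 18) and fatty acid oxidation (1 of 10).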

How the data were processed

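Libraries were made from total RNA with a kit whose strand setting is not given in the sources used here. Per the submitters' processing notes, reads were checked with FastQC 0.11.9 and MultiQC 1.14 and quantified with kallisto 0.48.0, with hg38 named as build. The authors deposited estimated counts per gene symbol, not scaled to depth. How transcripts were summed to symbols is not given in the sources used here. Of the values, 28% had decimals, and all were rounded to whole numbers. Columns were matched to samples by title and number. The unstimulated columns carry "none" where the titles give DMSO.

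DESeq2 1.42.0 (R 4.3.3) was fitted once to all 16 libraries and all genes, with the 4 groups as the design, size factors by median of ratios and default independent filtering (Wald test, two-sided, Benjamini-Hochberg adjustment over all tested genes, threshold 0.05). Fold changes were not shrunken. The 6 contrasts of the 4 groups share libraries. The study calls replicates of this RNA-seq biological in a legend, while its methods for matching cells to fibroblast profiles speak of technical replicates. Its legends give fewer replicates per group for this RNA-seq than the 4 libraries per group used here. Which libraries it used is not given in the sources used here. All are cultures of a single line, so p-values measure the spread between these cultures. The 21 alternatives were edgeR 4.0.16 (quasi-likelihood), TMM size factors, a filter of at least 10 counts in at least 4 libraries, independent filtering off, only the groups compared, and leaving out each of the 16 libraries. Both tests were also run on simulated data drawn with the means and spreads of the DESeq2 fit. The changes set into the belinostat group there were larger than most log2 fold changes of the list, so recovery of smaller changes was not examined. Those data held no shift shared by many genes of a single library.

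The members, lists and motifs were chosen with earlier results of these data known. All 31 members are named, with values by library for those called in any contrast and for SREBF1, SREBF2 and INSIG1. Of the partner lists, genes called in a contrast with vehicle are named, and SCD, DHCR7, ABCA1 and the members and markers named for their distance in 1 library were chosen after their values were seen. Gene positions and overlaps are those of GENCODE on hg38, by symbol. Reads of overlapping genes on opposite strands may not be told apart. With 14.4 to 19.5 M counts per library, the parts of counting and of spread between cultures in these values were not separated.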

Additional observations from a re-analysis of the deposited data

Results flagged for a closer look

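Within groups of 4, the highest or lowest library stood far from the other 3 (Dixon's ratio above its 95% critical value) in 15 of 124 tests of the 31 genes. The 31 genes varied together, so these tests are not independent. Of the 15, 11 were in the belinostat group, each for replicate 17, where 8.86% of all expressed genes had such a library. The unstimulated, vehicle and GSK-J4 groups had 1, 1 and 2, where 4.44%, 5.93% and 5.49% of all expressed genes had one. The values of replicate 17, in normalized counts with the nearest library of its group, were 759 (nearest 436.1) for ACAT2, 765.7 (493.3) for MVD, 1450 (816.1) for IDI1, 1604 (1020) for FDPS, 3509 (2297) for LSS, 1376 (564.1) for DHCR7, 1141 (720.6) for SREBF1, 3421 (2092) for SREBF2, 7033 (2463) for SCD, 2781 (1945) for FASN and 3351 (1708) for FADS1. The other 4 were vehicle replicate 14 for SREBF2 at 2309 (nearest 1931), GSK-J4 replicate 22 for SREBF2 at 2551 (2189) and for FADS2 at 3507 (2705), and unstimulated replicate 2 for ACAT2 at 280.3 (307.9), low by a small amount in a narrow group.

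The effect of the compounds on ELOVL2 differed, by a direct test of belinostat against GSK-J4, at -1.62 in log2 (SE 0.14, adjusted p = 1.31e-26 by DESeq2). All 4 belinostat libraries lay below vehicle and all 4 GSK-J4 libraries above it.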

How the results depend on the processing

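No paired analysis was possible because the replicate numbers of the titles differ between all 4 groups. Over the alternatives, 288 values of called members kept their call, 48 fell short of the threshold and none changed direction. Members called moved by more than 1.5 times with the groups compared alone (2 in vehicle against unstimulated, 16 in GSK-J4 against unstimulated) and in edgeR (0 in GSK-J4 against vehicle, 3 in GSK-J4 against unstimulated). Leaving out 1 library at a time, members called ran from 0 to 3 (vehicle against unstimulated), 1 to 3 (belinostat against vehicle), 0 to 1 (GSK-J4 against vehicle), 1 to 5 (belinostat against GSK-J4), 4 to 12 (belinostat against unstimulated) and 1 to 18 (GSK-J4 against unstimulated). Without belinostat replicate 17 the shares of all tested genes called were 3.1%, 8.27%, 3.17%, 14.6%, 9.69% and 8.64%, in the same order. Belinostat against unstimulated rose from 6 to 12 without belinostat replicate 19, to 10 without replicate 20 and to 10 without unstimulated replicate 3, and GSK-J4 against unstimulated fell to 3 without unstimulated replicate 2. In GSK-J4 against unstimulated, members called went from 6 to 18 without belinostat replicate 17, where the share of all tested genes went from 5.55% to 8.64%. With the groups alone the calls over all genes in that contrast stayed close to those of the fit of all 16 libraries, as given above. In other contrasts calls over all genes moved as well, as given next. Whether any of these changes was particular to the list was not tested. Over all genes, calls were 166 in edgeR against 282 (vehicle against unstimulated), 91 in edgeR and 542 with the groups alone against 253 (GSK-J4 against vehicle), and 876 with the groups alone against 1461 (belinostat against unstimulated). Leaving out 1 library gave 180 to 453, 132 to 432 and 989 to 1836 in these contrasts. The cause was not tested. TMM size factors moved the median of all genes by under 0.1. Beside calls named in the text, TOP2A, RRM2 and BIRC5 in vehicle against unstimulated were kept in 14, 12 and 11 of 21 alternatives, and MKI67 and TOP2A in GSK-J4 against vehicle in 15 and 14.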
